A study of Rattus norvegicus with 6 samples.

Results

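The genes followed here are 10 transcription regulators of the immediate early and stress responses, Fos, Fosl1, Jun, Junb, Atf3, Atf4, Egr1, Nr4a1, Ier2 and Myc, measured in endothelial cells isolated from cirrhotic and control rat livers. They were chosen by name, and every probe set annotated to 1 of them alone was read, dim ones included. This gave 13 of the 15866 probe sets of the Affymetrix rat 230A array, with 3 for Jun, 2 for Fos and 1 for each of the others, and 10 of the 10411 genes that have a probe set of their own. Arrays of 3 samples came from adult male Wistar rats that had been put through an induction of cirrhosis, and arrays of 3 samples from control Wistar rats. The comparison addresses how the transcripts of liver endothelial cells differ in cirrhosis. In both groups the cells were freed by collagenase perfusion, separated by density and captured on magnetic beads carrying antibodies. The labels do not say by what agent the livers became cirrhotic, which surface protein the antibody bound, whether the control rats were male, and how many rats stand behind each array. The p-values therefore cover the spread among these 6 arrays, which may be technical.

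Immediate early genes are switched on within minutes of a stimulus without new protein synthesis, mostly through MAP kinases acting on serum response factor and CREB at their promoters. Fos and Jun family proteins pair through leucine zippers to form AP-1, Egr1 is a zinc finger factor, Nr4a1 an orphan nuclear receptor and Myc a driver of growth and ribosome synthesis, while Atf4 is the effector of the integrated stress response and induces Atf3. In endothelium these genes answer shear stress, growth factors, cytokines and injury. Enzymatic dissociation of tissue is also known to induce them, and no sample of undissociated liver was part of this comparison, so induction before and during isolation cannot be told apart.

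All 6 arrays had been scaled by the authors to nearly the same level, with a trimmed mean signal of 399.2 to 399.6. The 12 tested of 13 markers of sinusoidal and general endothelium (Cdh5 had no probe set of its own) were bright in both groups, and all 12 were lower in cirrhotic arrays, with a summed signal of 24786 to 28423 in cirrhotic and 54148 to 59568 in control arrays. Markers of other liver cells moved the other way: 7 of 9 tested stellate cell and myofibroblast markers and 6 of 7 tested cholangiocyte markers were higher in cirrhotic arrays. Their summed signals were 13578 to 24374 in cirrhotic and 1901 to 3457 in control arrays for the stellate list, and 5125 to 12712 in cirrhotic and 729 to 1468 in control arrays for the cholangiocyte list. The stellate marker Acta2 read 37.9 to 97.3 in cirrhotic and 14.7 to 20.9 in control arrays, and the cholangiocyte marker Krt7 read 23.3 to 71.8 in cirrhotic and 41.6 to 56.7 in control arrays, both too dim to be tested. Beside the marker counts given here, 12.3% of all tested probe sets were called higher and 13.2% lower. Hepatocyte markers summed to 34078 to 64572 in cirrhotic and 33777 to 43495 in control arrays, with 6 of 12 higher and 1 lower. The 6 became 2 without control array 3, and 3 without cirrhotic array 1 or control array 2. Macrophage markers summed to 5655 to 12190 in cirrhotic and 4359 to 8863 in control arrays (2 of 9 higher, 1 of 9 without control array 3, and 1 lower), and T and NK cell markers to 2469 to 5658 in cirrhotic and 2592 to 3871 in control arrays (3 of 8 higher, and 4 higher and 1 lower without cirrhotic array 3). Of the marker genes called higher, 3 stellate, 4 cholangiocyte, 1 hepatocyte and 2 T and NK cell genes had a control mean (on the log2 scale) under the filter on dim signals, which lay at about 127, and the macrophage gene called lower had its cirrhotic mean there, so that they were tested through 1 group. The part of these shifts in the results that follow was not tested, and in mixed RNA of this kind fewer cells of a type and less RNA per cell cannot be told apart.

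Of the 10 genes, 6 were lower in cirrhotic arrays on at least 1 probe set (Jun, Junb, Atf3, Atf4, Egr1 and Ier2), Myc was higher, and Fos, Fosl1 and Nr4a1 did not pass. The test was limma's moderated test on log2(signal + 16), with Benjamini-Hochberg adjustment over all 9519 probe sets that passed a filter on dim signals and a threshold of 0.05. Of the 13 member probe sets 12 passed the filter, and 8 of these 12 were called, against 25.4% of all tested probe sets. The 7 called lower compare with 13.2% of all tested probe sets, and the 1 called higher with 12.3%. The groups did not overlap for the same 8 probe sets, against 44.9% of all tested probe sets. The median log2 difference of the 12 was -0.55, beside -0.02 over all tested probe sets. Fosl1 had a control mean of 121 and passed the filter through its cirrhotic signals, while the other 11 had means above this level in both groups.

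**Figure D1:**
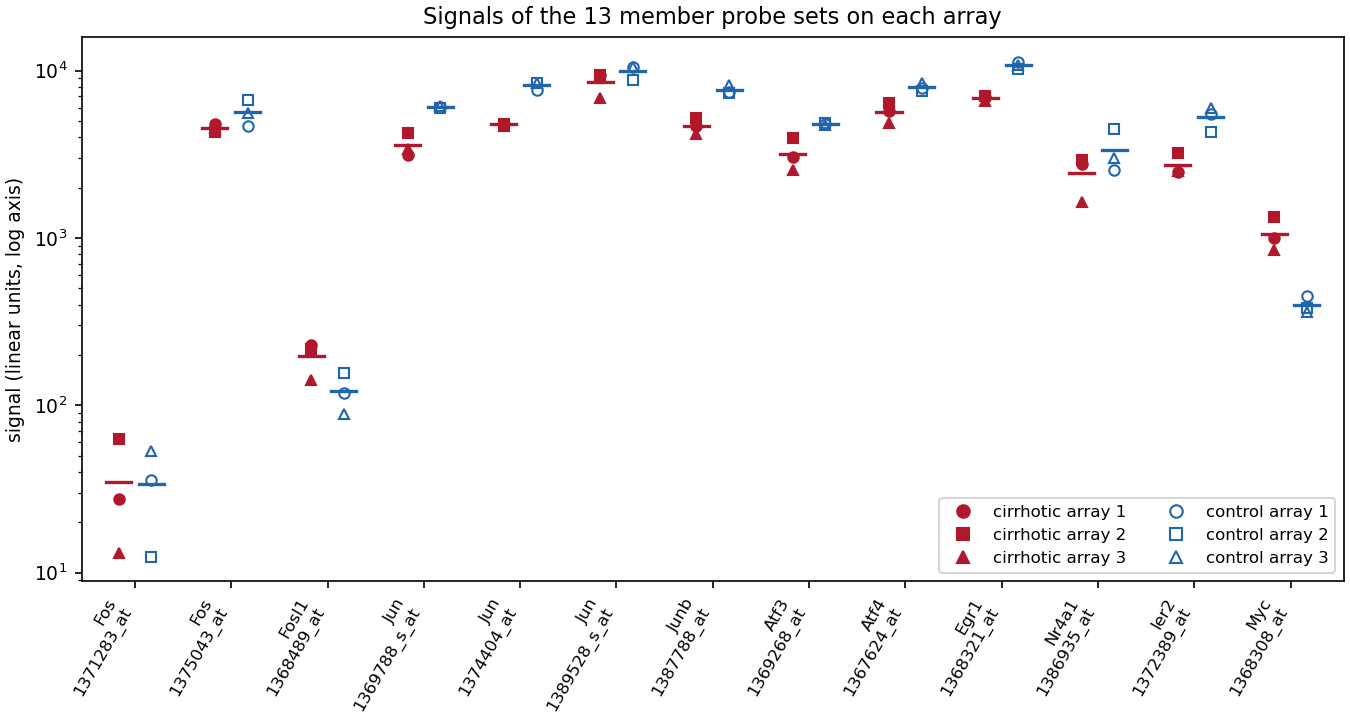
Signal (linear units, log axis) of each of the 13 member probe sets on each of the 6 arrays. Filled red symbols are cirrhotic and open blue symbols control arrays, with circle, square and triangle for arrays 1, 2 and 3 and a bar at the group mean. The groups are separate for 2 Jun probe sets, Junb, Atf3, Atf4, Egr1 and Ier2, with cirrhotic below control, and for Myc, with cirrhotic above.

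Among AP-1 subunits, Junb and 2 of the 3 Jun probe sets were lower, and the third Jun probe set, Fos and Fosl1 did not pass. Jun, the principal partner of Fos proteins, had signals of 4821, 4793 and 4692.5 in cirrhotic arrays, against 7645, 8436 and 8447 in control arrays on probe set 1374404_at. The cirrhotic signals lay within a narrow band well under all 3 control signals, and the log2 difference was -0.77 (SE 0.08, n = 3 per group, adjusted p = 0.00089). On the second probe set, 1369788_s_at, Jun had 3114, 4231 and 3388 in cirrhotic and 6024, 5999.9 and 6143 in control arrays. Here too no array of one group reached the other, and the difference was again -0.77 (SE 0.12, adjusted p = 0.00422). The third, 1389528_s_at, was annotated to the same accession as 1374404_at but disagreed with it, with signals of 9394, 9353 and 6894 in cirrhotic and 10429, 8803 and 10451 in control arrays. The groups overlapped there, since cirrhotic arrays 1 and 2 lay above control array 2, and the difference of -0.22 did not pass (SE 0.14, 95% interval -0.54 to 0.10, adjusted p = 0.269).

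Junb, a Jun relative that activates more weakly and can oppose Jun at some promoters, read 4691, 5186 and 4201 in cirrhotic arrays, against 7392, 7319 and 8250.0 in control arrays. All cirrhotic signals were below all control signals, and Junb fell by 0.71 (SE 0.10, adjusted p = 0.00317), to 61.3% of the control mean signal. Fos, which binds DNA only together with a partner such as Jun, read 4817.5, 4289 and 4505 in cirrhotic and 4643, 6623 and 5608 in control arrays on probe set 1375043_at. Its cirrhotic arrays lay close together and control array 1 fell among them, and the difference of -0.30 did not pass (SE 0.14, 95% interval -0.61 to 0.02, adjusted p = 0.145). The other Fos probe set, 1371283_at, read between 13.1 and 63.3 in cirrhotic and between 12.5 and 53.5 in control arrays. Only 2 of its 6 signals were above the highest bacterial control probe set of their array, and it was not tested.

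Fosl1, the Fra-1 subunit, which lacks the transactivation domain of Fos and appears later in the response, had the opposite sign. Its signals were 230.0, 217.7 and 141.9 in cirrhotic arrays, against 118.8, 156.0 and 88.5 in control arrays. Cirrhotic array 3 lay below control array 2, so the groups overlapped, and the difference of 0.64 did not pass (SE 0.25, unadjusted p = 0.0356, adjusted p = 0.0998). Without cirrhotic array 3 it was 0.84 with an adjusted p of 0.0412.

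**Figure D2:**
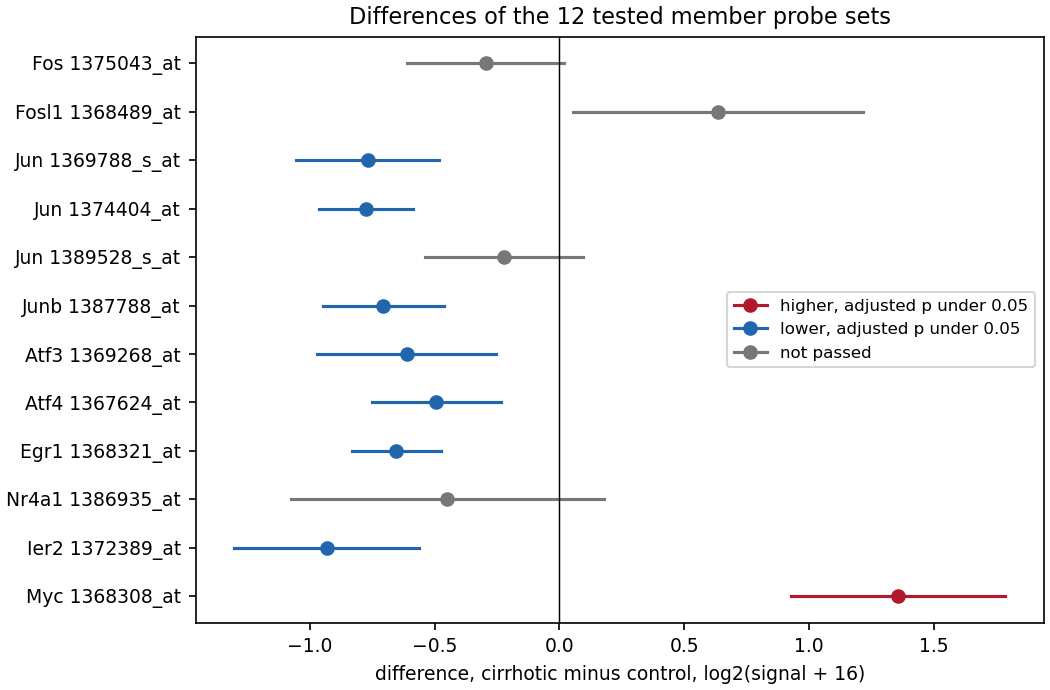
Log2 difference, cirrhotic minus control, of the 12 tested member probe sets, with points at the estimate and lines for the 95% interval from limma (not adjusted for the number of probe sets). Blue and red mark probe sets called lower and higher and grey those that did not pass: 7 lie between -0.93 and -0.49 in blue, and Myc lies at 1.36 in red.

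Egr1, the zinc finger factor that links growth factor and injury signals to genes such as tissue factor and PDGF, had 6918, 7032 and 6564 in cirrhotic arrays, against 11320, 10148 and 10851 in control arrays. The gap between the lowest control and the highest cirrhotic signal was 3116, wider than the range within either group. Egr1 fell by 0.65 (SE 0.08, adjusted p = 0.00131), to 63.5% of the control mean. Ier2, a small nuclear protein induced in the same wave, had 2487, 3220 and 2504 in cirrhotic arrays, against 5487, 4276 and 6004 in control arrays. It had the largest difference among the 7 probe sets called lower, -0.93 (SE 0.16, adjusted p = 0.00556), with control array 2 nearest to the cirrhotic arrays. Nr4a1, the nuclear receptor Nur77, read 2756, 2919 and 1648 in cirrhotic and 2532, 4492 and 2987 in control arrays. Control array 1 lay below cirrhotic arrays 1 and 2, and the difference of -0.45 did not pass (SE 0.27, 95% interval -1.08 to 0.18, adjusted p = 0.256).

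Atf3, a bZIP repressor induced by both the immediate early and the integrated stress pathways, read 3029, 3938 and 2552 in cirrhotic arrays, against 4807, 4834 and 4707 in control arrays. The control signals were almost identical, the cirrhotic ones spread below them, and Atf3 fell by 0.61 (SE 0.15, adjusted p = 0.024). The call ended without any 1 of the control arrays or without cirrhotic array 1, with adjusted p-values of 0.0703 to 0.0799 and differences of -0.62 to -0.59, while the difference was -0.78 without cirrhotic array 2 and -0.47 without cirrhotic array 3 and passed in both. Atf4, whose translation rises when eIF2 is phosphorylated and whose protein activates amino acid synthesis and transport genes, read 5766, 6353 and 4882 in cirrhotic arrays, against 7874, 7535 and 8432 in control arrays. The groups did not overlap, and Atf4 fell by 0.49 (SE 0.11, adjusted p = 0.0159). Without control array 3 the difference was -0.45 and did not pass (adjusted p = 0.0709). Because Atf4 is regulated mainly in translation, the level of its protein, which was not measured here, cannot be inferred from its mRNA signal.

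Myc was the only member called higher. Its signals were 995, 1326 and 849.0 in cirrhotic arrays, against 449.9, 379.9 and 362.3 in control arrays, so the lowest cirrhotic signal exceeded the highest control signal by 399. Myc rose by 1.36 (SE 0.19, 95% interval 0.93 to 1.79, adjusted p = 0.00222), and its mean was 2.66 times the control mean. Over all the alternative settings and each array left out, the difference of Myc stayed between 1.16 and 1.50 and was called each time. Egr1, Junb, Ier2 and both lower Jun probe sets were likewise called lower in every setting that held them.

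The position of these probe sets on the signal scale bears on how the differences can be read. Excepting the dim Fos probe set, Fosl1 and Myc, the 10 remaining member probe sets ranked among the 1032 brightest of 15866 on every array, and Egr1 among the 86 brightest. A probe set's brightness depends on its own probes, so this is a place on the scale and not an abundance. The highest signal of any probe set was 11422 to 13925 on cirrhotic and 11474 to 12284 on control arrays. The control signals of Egr1 came close to it, as did those of Jun 1389528_s_at on control arrays 1 and 3. A difference may be compressed there. On control array 2 that Jun probe set read 8803, under a highest signal of 12284. Of the 763 tested probe sets with a mean signal above 2000, 203 (26.6%) were called lower and 149 (19.5%) higher, with a median difference of -0.00, and 10 of the 763 were member probe sets, 7 of them lower.

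**Figure D3:**
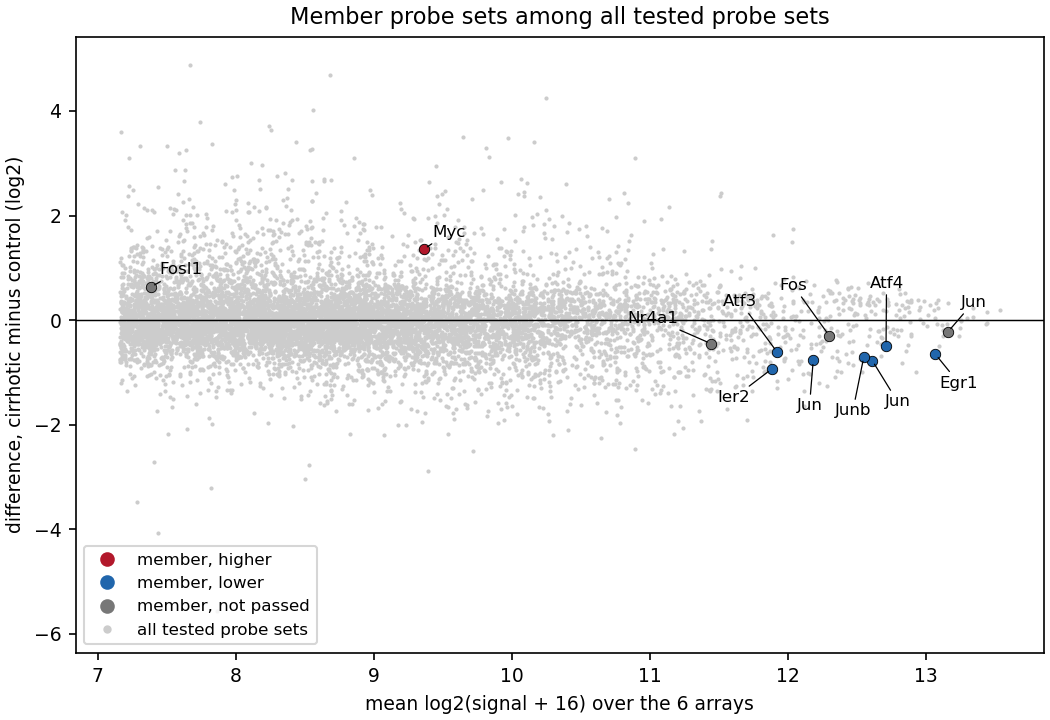
Log2 difference, cirrhotic minus control, against the mean log2(signal + 16) over the 6 arrays, with all 9519 tested probe sets in grey and the 12 tested member probe sets in colour. Most members sit at the bright end, below 0, while Myc (1.36) and Fosl1 (0.64) sit above 0 at lower signals.

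Within the cirrhotic group most member probe sets, though not all, shared the array with their lowest and that with their highest signal. The lowest cirrhotic signal was on array 3 for 9 of the 12 tested probe sets, beside 38.8% of all tested probe sets, and the highest on array 2 for 8 of 12, beside 36.4%. Cirrhotic array 3 also had the highest cirrhotic signal of all 12 tested hepatocyte markers and the lowest of all 7 tested cholangiocyte, all 9 macrophage and all 8 T and NK cell markers. The part of this in the members' order was not tested. Without cirrhotic array 3 the same number of member probe sets, 7, was called lower and 2 were called higher, Fosl1 being added to Myc. A measure of RNA degradation, the 3' over 5' signal ratio, was 1.23 to 1.27 in cirrhotic and 1.22 to 1.57 in control arrays for actin, and 1.13 to 1.15 in cirrhotic and 1.08 to 1.37 in control arrays for GAPDH. Control arrays 1 and 3 lay above every cirrhotic array for actin (1.57 and 1.53) and GAPDH (1.37 and 1.24). Control array 2 lay below them all (1.22 and 1.08). The part of RNA quality in the differences was not tested.

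RefSeq promoter entries on the GRCr8 build were matched by symbol for 6 of the 10 members, Egr1, Fosl1, Junb, Atf4, Nr4a1 and Ier2, of which Fosl1 and Nr4a1 did not pass the test. To set 3 members that fell beside 1 that did not pass, the 250 bases before the start are shown 5′ to 3′ for Ier2 (chr19:40399123-40399372, plus strand), Junb (chr19:40080876-40081125, plus strand), Atf4 (chr7:113684431-113684680, plus strand) and Nr4a1 (chr7:134259888-134260137, plus strand). Capitals mark the letters TGACG on either strand, which begin the cAMP response element bound by CREB and ATF proteins, the full palindrome TGACGTCA, and the E-box CACGTG, which is bound by Myc and related factors.
Ier2: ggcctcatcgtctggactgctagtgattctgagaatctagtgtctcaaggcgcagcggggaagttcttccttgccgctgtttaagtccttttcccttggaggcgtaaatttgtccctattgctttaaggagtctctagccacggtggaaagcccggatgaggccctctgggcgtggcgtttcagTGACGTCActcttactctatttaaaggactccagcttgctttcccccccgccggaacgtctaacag
Junb: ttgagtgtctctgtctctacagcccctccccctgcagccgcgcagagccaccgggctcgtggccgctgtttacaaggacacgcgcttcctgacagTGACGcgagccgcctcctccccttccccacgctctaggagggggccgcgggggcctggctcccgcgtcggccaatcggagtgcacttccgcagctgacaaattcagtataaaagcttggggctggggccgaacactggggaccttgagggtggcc
Atf4: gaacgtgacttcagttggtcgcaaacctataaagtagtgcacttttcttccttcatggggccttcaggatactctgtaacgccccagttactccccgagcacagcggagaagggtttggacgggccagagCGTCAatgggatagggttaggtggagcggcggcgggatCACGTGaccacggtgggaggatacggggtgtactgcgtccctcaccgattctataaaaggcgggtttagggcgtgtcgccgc
Nr4a1: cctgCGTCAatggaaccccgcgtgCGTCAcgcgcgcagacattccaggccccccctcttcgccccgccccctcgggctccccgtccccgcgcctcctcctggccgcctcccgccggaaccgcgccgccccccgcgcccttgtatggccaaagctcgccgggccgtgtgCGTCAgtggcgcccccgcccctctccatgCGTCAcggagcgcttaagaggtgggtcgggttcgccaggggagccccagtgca

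TGACG was present in all 6 of these promoters, beside 18.2% of 33465 RefSeq rat promoters of the same length, and Nr4a1, which did not pass, had the most copies, 4. The 33465 promoters were not matched to the 6 in base composition, so the shares cannot be read as enrichment. The full TGACGTCA, which overlaps TGACG on both strands, was found only in Ier2, at bases -66 to -59 before the start, and in 1.59% of all promoters. The CArG box, the serum response factor motif, was searched as CC, then 6 letters of A or T, then GG. It was found in 1 of the 6, Egr1, with 2 copies at -105 to -96 and -83 to -74, and in 1.5% of all promoters. The AP-1 letters TGACTCA were found in none of the 6 and in 4.05% of all promoters, and CACGTG only in Atf4 and in 5.59%. On the sense strand TATAAA lay at -49 to -44 in Junb and at -223 to -218 and -31 to -26 in Atf4, and in 8.06% of all promoters. Only these exact patterns were searched, so sites that vary from them were not counted. These matches describe letters in a window and were not tied to binding.

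Other immediate early genes included both lower and higher calls, the lower ones being more numerous. Of 50 listed genes 46 had a probe set of their own and 44 were tested, with a median of -0.40. Of the 44, 17 were lower (38.6%, beside 13.2% of all tested probe sets), 5 were higher (11.4%, beside 12.3%) and 22 did not pass. The kinase gene Plk2 read 4177, 3989 and 3866 in cirrhotic and 6389, 6526 and 6598.5 in control arrays (-0.70, SE 0.08, adjusted p = 0.00131). The growth arrest gene Gadd45g fell by 0.77 (SE 0.11) and Klf2, the flow-induced transcription factor of endothelium, by 0.97 (SE 0.14). Ptgs2, the inducible cyclooxygenase, had the opposite sign and read 846.7, 804.7 and 447.1 in cirrhotic and 115.2, 108.3 and 94.3 in control arrays, with no overlap (2.50, SE 0.24, adjusted p = 0.000719). Its control signals lay under the filter level, so Ptgs2 was tested only through its cirrhotic signals. The other 4 that rose, named after their values were seen, were Gadd45a (0.92), Nr4a3 (1.30), Id2 (0.91) and Ccn2 (0.62). The rise of Nr4a3 was read on its brightest probe set. Another Nr4a3 probe set of similar brightness (mean log2 signal of 10.14, beside 10.42) disagreed, with a difference of 0.26 that did not pass. Nr4a3 did not pass without control array 3 (adjusted p = 0.0549), Id2 without control array 1 (adjusted p = 0.0525), and Ccn2 without any 1 of the arrays except cirrhotic array 3 (adjusted p = 0.0542 to 0.0882). Without control array 3 the list had 10 lower and 3 higher. The Egr relatives Egr3 and Egr4 were too dim to be tested.

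Of 26 listed bZIP relatives of Fos, Jun and the ATF factors, 22 had a probe set and 18 were tested, with 2 lower (11.1%, beside 13.2% of all tested probe sets), none higher and 16 not passed, and a median of -0.13. The list had 1 lower without cirrhotic array 1 and 0 lower without control array 3. Nfe2l2, the oxidative stress factor Nrf2, fell by 0.66 (SE 0.14, adjusted p = 0.0127) but did not pass once cirrhotic array 1 or control array 3 was left out (adjusted p = 0.053 and 0.0564). Cebpd, an acute phase factor, fell by 0.56 (SE 0.17, adjusted p = 0.0471), and its call ended without each array but cirrhotic array 1. Nfil3 and Mafk did not pass (0.54 and -0.55, adjusted p = 0.0687 and 0.105). Cebpa, Dbp, Jdp2 and the AP-1 subunit Jund were too dim to be tested.

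Among kinases and serum response factor components that act upstream of the members, 21 of 30 had a probe set, and of 19 tested 3 were lower (15.8%, beside 13.2% of all tested probe sets), none higher and 16 not passed (median -0.09). Mapk14, the p38 alpha kinase, read 690.0, 759.0 and 971.1 in cirrhotic and 1392.5, 1318 and 1396 in control arrays (-0.77, SE 0.15, adjusted p = 0.00958). Elk3, a ternary complex factor that joins serum response factor on DNA, and Map2k6, a kinase that activates p38, fell by 0.42 (SE 0.11, adjusted p = 0.0242) and 0.50 (SE 0.15, adjusted p = 0.0426). The calls of Elk3 and Map2k6 each ended in 4 of the 6 fits that left out 1 array, and only 1 of the 19 was lower when cirrhotic array 1, control array 1 or control array 3 was omitted, while without cirrhotic array 3 the list had 3 lower and 2 higher. Nras, a small GTPase, did not pass (-0.51, adjusted p = 0.0785).

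Calls among listed targets of the AP-1 and Egr1 factors went both ways, and some of the higher ones were tested only through their cirrhotic signals. Of 16 AP-1 targets 15 had a probe set and 11 were tested (median 0.83). Of the 11, 4 were higher (36.4%, beside 12.3% of all tested probe sets), 1 was lower (9.09%, beside 13.2%) and 6 did not pass. Vim, an intermediate filament of mesenchymal cells, rose by 2.17 (SE 0.21, adjusted p = 0.000766), Il6, the cytokine, by 2.15 (SE 0.40, adjusted p = 0.00716), and Cd44, a hyaluronan receptor, by 1.08 (SE 0.22, adjusted p = 0.0112), the last not passing without cirrhotic array 1 or control array 3 (adjusted p = 0.0507 and 0.0503). The secreted phosphoprotein Spp1, which is also in the cholangiocyte list, rose by 3.28 (SE 0.66, adjusted p = 0.0102). Il6 and Spp1 had control means under the filter level (63.5 and 110.0) and were tested only through their cirrhotic signals. Hmox1, the haem oxygenase, was the 1 that fell (-1.06, SE 0.28, adjusted p = 0.0304) and did not pass without control array 2 or 3 (adjusted p = 0.0971 and 0.102), and it was named after its value was seen. Without cirrhotic array 3 the list had 7 higher and 1 lower, and without control array 3 it had 3 higher and 0 lower. The matrix metalloproteinases Mmp3, Mmp9, Mmp10 and Mmp13 were too dim to be tested, and Mmp10 and Mmp13 lay at or under the bacterial controls on every array.

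Of 10 corepressors and targets of Egr1, 8 had a probe set and 7 were tested. Of these 7, 1 was higher (14.3%) and 1 lower (14.3%), near the 12.3% and 13.2% of all tested probe sets, and 5 did not pass (median 0.22). F3, the tissue factor that starts coagulation, read 262.5, 260.9 and 322.3 in cirrhotic and 49.1, 80.5 and 46.4 in control arrays and rose by 2.02 (SE 0.22, adjusted p = 0.000941). As with Ptgs2, the filter was passed through the cirrhotic arrays alone, all 3 control values of F3 being under it. Flt1, the VEGF receptor also counted among the endothelial markers, fell by 1.63 (SE 0.19, adjusted p = 0.00131). The corepressor Nab2 and the growth factor Pdgfa did not pass (0.57 and 0.54, adjusted p = 0.164 and 0.117).

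Among genes that Myc is known to activate, those that passed were all higher, though not under every alternative setting. Of 32 listed genes of ribosome biogenesis and growth 29 had a probe set and 27 were tested, with a median of 0.48. Of the 27, 15 were higher (55.6%, beside 12.3% of all tested probe sets), none lower (beside 13.2%) and 12 did not pass. Odc1, the first enzyme of polyamine synthesis, read 4052.5, 4313 and 3188 in cirrhotic and 961.1, 969.7 and 1127 in control arrays, without overlap, and rose by 1.89 (SE 0.15, adjusted p = 0.000442). Srm, the spermidine synthase of the same pathway, rose by 1.15 (SE 0.15), the nucleoside diphosphate kinase gene Nme2 by 0.94 (SE 0.11) and Apex1, a DNA repair endonuclease, by 0.86 (SE 0.13), with adjusted p-values of 0.00142 to 0.00313. Srm, with a control mean of 121.9, was the 1 of the 15 that was tested only through its cirrhotic signals. Leaving out control array 1 or control array 3 reduced the count of 15 to 9. Without control array 2 the list had 11 higher and 1 lower, and with array weights 19 higher and 1 lower. Of 8 measured partners of Myc 6 were tested, and 1 of the 6 was called higher (16.7%, beside 12.3% of all tested probe sets). This was Mxd1, an antagonist that competes for Max (0.86, SE 0.21, adjusted p = 0.0203), which did not pass after omission of cirrhotic array 1 or control array 3 (adjusted p = 0.0792 and 0.0764). Max itself, the obligate partner, read 881.0, 834.4 and 876.3 in cirrhotic and 1077, 1045 and 988.4 in control arrays and did not pass (-0.26, adjusted p = 0.135). Mycn, a Myc paralogue, was too dim to be tested, with 111.6, 154.4 and 243.9 in cirrhotic and 8.3, 23.8 and 12.2 in control arrays.

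Targets of Atf4 were called in both directions. Of 43 listed 40 had a probe set and 35 were tested (median 0.17). Of the 35, 9 were higher (25.7%, beside 12.3% of all tested probe sets), 2 were lower (5.7%, beside 13.2%) and 24 did not pass. Slc7a1, the cationic amino acid transporter, read 713.2, 1069 and 623.6 in cirrhotic and 242.1, 234.5 and 230.7 in control arrays and rose by 1.66 (SE 0.20, adjusted p = 0.00136). Phgdh, the first enzyme of serine synthesis, rose by 1.36 (SE 0.25), the stress-induced chromatin protein Nupr1 by 1.09 (SE 0.20) and the threonyl-tRNA synthetase Tars1 by 0.82 (SE 0.14), with adjusted p-values of 0.00577 to 0.00685. Phgdh, with 98.6 as its control mean, was 1 of 2 among the 9 higher genes that were tested only through their cirrhotic signals. The 2 that fell, named after their values were seen, were Chac1, which degrades glutathione (-1.03, SE 0.21, adjusted p = 0.0104), and Slc3a2, the heavy chain of amino acid transporters (-0.67, SE 0.15, adjusted p = 0.0144). Slc3a2 did not pass without cirrhotic array 1 or control array 3 (adjusted p = 0.0546 and 0.0648). Without control array 3 the list had 4 higher and 1 lower, and without cirrhotic array 1 it had 5 higher and 1 lower. Asns, Psat1, Stc2, Vldlr and Fgf21 were too dim to be tested, among them Psat1, an enzyme of serine synthesis, with 319.1, 430.2 and 202.4 in cirrhotic and 41.4, 44.3 and 38.8 in control arrays. Of the 12 kinases, eIF2 and eIF2B subunits and phosphatase subunits that set eIF2 activity, 1 was called (8.3% higher, beside 12.3% of all tested probe sets). This was Eif2s1, the alpha subunit of eIF2 (0.42, SE 0.12, adjusted p = 0.0402), and that call ended without any 1 of the 6 arrays. With cirrhotic array 2 or control array 2 left out, 1 of the 12 was lower.

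**Figure D4:**
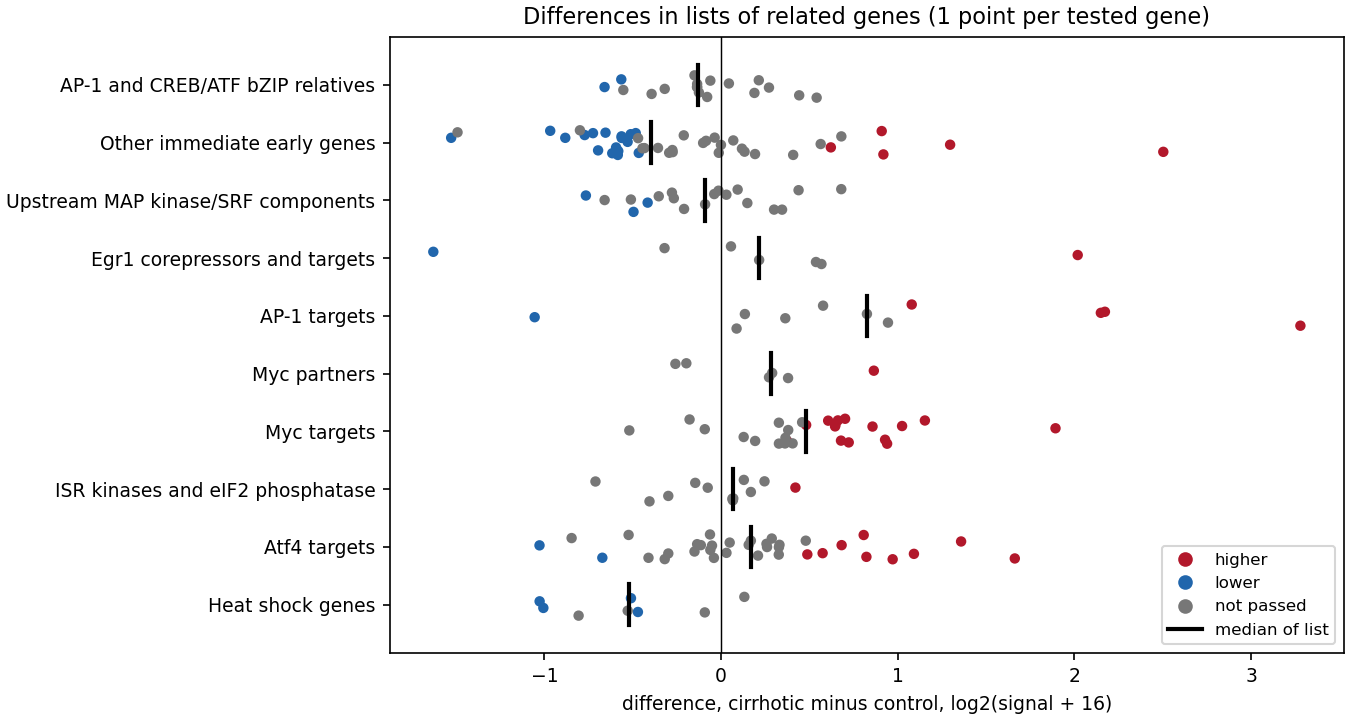
Log2 difference, cirrhotic minus control, of each tested gene in 10 lists around the members (ISR, integrated stress response; SRF, serum response factor), with blue, red and grey for genes called lower, called higher and not passed and a black bar at the list's median. The medians of the heat shock genes (-0.52) and other immediate early genes (-0.40) lie below 0, and those of the AP-1 targets (0.83) and Myc targets (0.48) above 0.

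Heat shock genes, which dissociation of tissue also induces, were lower or did not pass. Of 11 listed 8 were tested, with 4 lower (50%, beside 13.2% of all tested probe sets), none higher (beside 12.3%) and 4 not passed (median -0.52). Hspb1, a small heat shock protein, read 3394.5, 3286 and 2869 in cirrhotic and 5749, 7786 and 5836 in control arrays and fell by 1.01 (SE 0.14, adjusted p = 0.00242). The cochaperone gene Bag3 fell by 1.03 (SE 0.21, adjusted p = 0.01), the inducible Hsp70 gene Hspa1a by 0.47 (SE 0.13, adjusted p = 0.0292) and the cochaperone gene Dnaja1 by 0.51 (SE 0.15, adjusted p = 0.0385). The count of 4 was 2 without cirrhotic array 1, without control array 2 or without control array 3, where the calls of Hspa1a and Dnaja1 ended, and Dnaja1 did not pass without cirrhotic array 2 or 3 either (adjusted p = 0.0557 and 0.0558). As among the members, the lowest cirrhotic signal was mostly on array 3. This held for 7 of the 8 heat shock genes and 34 of the 44 other immediate early genes, beside 38.8% of all tested probe sets. It also held for 14 of 18 tested bZIP relatives, 9 of 11 AP-1 targets and, as given above, all cholangiocyte, macrophage and T and NK cell markers. Array 3 was lowest for only 1 of 12 endothelial, 2 of 9 stellate and 0 of 12 hepatocyte markers.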

How the data were processed

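The deposited table holds intensity per probe set on a linear scale, scaled by the authors. Neither the labels nor the file name the software behind it. Per the labels, RNA was extracted with Trizol and hybridised to Affymetrix rat 230A arrays. Arrays were grouped by their titles, the control array without a number being called 1, and 0 further columns were left aside.

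Values were turned into log2(signal + 16), 16 being the rounded 10th percentile of all values. The 57 control probe sets and the dimmest 40% (6347 probe sets) were left out, and 9519 were tested with limma 3.58.1 in R 4.3.3 (lmFit, eBayes with trend, two-sided). The test was checked on simulated data. Symbols came from the platform annotation, and all 13 member probe sets matched RefSeq with 0 symbols changed. Background on each array was read from 27 bacterial control probe sets, whose highest signal was 21.7 to 49.9. A gene of a list was read on its brightest probe set.

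The members, lists and tests were chosen with earlier results of these data known. Named are all members, up to 4 genes per list with the smallest p, and the exceptions marked as chosen after their values were seen. Genes too dim or without a probe set are named by count or by their place in a list. Alternatives changed the normalization, pseudocount, filter, variance model, weights, probe sets and replicate block, or left out 1 array.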

Additional observations from a re-analysis of the deposited data

How the results depend on the processing

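Of the 12 tested member probe sets, the 8 calls and 4 non-calls were the same under quantile normalization, median centring, pseudocounts of 1 and 126, no filter, a filter at 60%, no variance trend, robust eBayes and the block. Leaving out probe sets with shared-sequence suffixes removed 1 Jun call (7 called), and array weights added Fosl1 (0.82, adjusted p = 0.0137, 9 called). With 1 array left out, 6 to 9 were called, and the calls lost were those of Atf3 and Atf4. No member or named gene reversed. Over all probe sets array weights gave 3772 calls against 2421, and leaving out 1 array gave 1341 (control array 3) to 2472, with 1366 without cirrhotic array 1. Median centring gave 925 higher and 1480 lower against 1167 and 1254.

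The numbers in the titles do not show that arrays are paired: deviations of same-numbered arrays correlated at 0.02, -0.01 and -0.16. With array number as a block, 1948 probe sets and the same 8 member probe sets were called. Under the block Hmox1, Elk3, Map2k6, Cebpd and Eif2s1 did not pass (adjusted p = 0.052, 0.0521, 0.0823, 0.0829 and 0.0813), and Eif2ak2 passed as lower (adjusted p = 0.0281).

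Counts of small lists moved by more than 1.5 times. Array weights gave 7 lower and 2 higher among upstream kinases (3 and 0), 2 lower and 1 higher among eIF2 regulators (0 and 1) and 2 higher among Myc partners (1), as did no filter and a filter at 60%. No filter or no trend gave 2 lower heat shock genes (4) and 1 lower bZIP relative (2), the block 1 lower bZIP relative, median centring 0 eIF2 regulators (1), and leaving out suffix probe sets 2 higher AP-1 targets (4) and 0 higher Egr1 targets (1), as did the filter at 60% for the latter. Without 1 array the lower calls were 0 to 2 for bZIP relatives, 10 to 20 for other immediate early genes, 1 to 3 for upstream kinases and 2 to 5 for heat shock genes and 0 to 1 for eIF2 regulators. The higher calls were 9 to 17 for Myc targets, 4 to 8 for Atf4 targets, 3 to 7 for AP-1 targets, 0 to 1 for Myc partners and 0 for eIF2 regulators. Hepatocyte markers had 2 to 5 higher (6) and T and NK cell markers 2 to 4 (3). The T and NK cell count was 1 with the filter at 60%, and with the block 4 higher and 1 lower, where eIF2 regulators had 1 lower and 0 higher. The cause was not tested. Signal over background limits the dim Fos probe set and the top of the signal range may limit Egr1 and Jun.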
